A study of Mus musculus with 4 samples.

Results

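The genes described here are the interferon-induced genes and regulators of the table of counts, taken by symbol: the interferon receptors (Ifnar1, Ifnar2, Ifngr1, Ifngr2), the Stat, Irf, Gbp, Irgm, Oas, Ifi, Ifit, Ifitm and Isg genes, Iigp1, Igtp, Zbp1 and 4 Parp genes. The rule matched 66 of the 13825 genes, and all 66 averaged 10 counts or more and entered the tests. It takes symbols and not function, so it also took Irf2bp1, Irf2bp2, Irf2bpl, Isg20l2 and Ifitm10, which share a name stem with the family. RNA of tibialis anterior (TA) muscle was sequenced from adult male wild-type (WT) mice and from mice lacking Fgf21 in the whole body (Fgf21KO), 14 days after cutting of the left sciatic nerve or sham treatment of the other leg. The 4 groups are abbreviated WS and WD for sham and denervated WT muscle, and KS and KD for sham and denervated Fgf21KO muscle. The study's methods name C57BL/6J for the WT mice and do not give the background of the Fgf21KO mice, and they describe a sham operation of the other limb where the sample labels describe an innervated control leg. Each group was 1 library made from 4 pooled muscles, so that a ratio between 2 libraries has no replicate check.

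Interferons are secreted proteins that cells release when they sense viral or bacterial nucleic acids. Type I interferons bind the receptor made of IFNAR1 and IFNAR2, and interferon gamma binds the receptor made of IFNGR1 and IFNGR2. Janus kinases on these receptors then phosphorylate STAT proteins. STAT2 and IRF9 bind the interferon-stimulated response element (ISRE) as parts of a complex, and paired STAT proteins bind the gamma-activated site (GAS). The induced genes encode antiviral proteins such as the IFIT, OAS and IFITM families, and the guanylate-binding proteins and immunity-related GTPases, which act on vacuoles that hold microbes. Muscle fibres, endothelial cells and the immune cells within a muscle can all answer interferon. The interferon ligands themselves were not analysed here.

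The WT libraries held 25249879 (sham) and 29150147 (denervated) counts and the Fgf21KO libraries 34141303 and 27740920, of which the members took 0.109% to 0.138%. Levels are given as counts and as CPM, the count scaled to library size, after correction by edgeR's trimmed mean of M-values (TMM). At 3 counts, the smallest level taken as measurable, a gene stood at 0.0919 to 0.129 CPM. Runx1, Ncam1 and Hdac4, which are known to rise in denervated muscle, rose here as the surgery labels state (for Runx1, from 44 to 5422 counts in WT and from 53 to 5459 in Fgf21KO). The deleted gene, Fgf21, was not analysed here and gave no check of the genotype labels. Of 11 muscle fibre markers, 3 were in the table, at a summed level of 25470 to 41910 CPM. Macrophage markers (14 tested) summed to 37.8 and 41.3 CPM in sham muscle of WT and Fgf21KO, and to 84.2 and 84.6 in denervated muscle. Endothelial markers (11 tested) summed to 753 and 623 CPM in sham and to 337 and 333 in denervated muscle. In whole muscle, fewer cells of a type and less RNA per cell cannot be told apart. With total counts alone in place of TMM, the median log2 ratio of all genes for denervation moved from 0.01 to 0.29 in WT and from 0.01 to 0.36 in Fgf21KO, and denervation directions are therefore relative to the TMM scale.

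Promoters were taken from RefSeq on GRCm38.p6, which is not the build named in the sample labels (GRCm39), so that positions here are those of GRCm38. A window of 250 bases before to 50 bases after the start site was at hand for 49 of the 66 members. The ISRE core was searched as GAAANNGAAA and the gamma-activated site as TTCNNNGAA, on both strands. The ISRE core was found in 20 of the 49 genes (40.8%), against 3.99% of 27025 genes in the table of promoters, and the gamma-activated site in 15 (30.6%), against 9.55%. The ISRE core was held by Gbp2, Gbp3, Gbp5, Gbp7, Igtp, Irgm1, Irgm2, Ifi203, Ifi205, Ifi207, Ifi211, Ifit1, Ifit3, Ifit3b, Ifitm2, Ifitm3, Irf2, Isg15, Oas1a and Stat2.

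The 120 bases before the start site are shown for 5 genes whose results recur below: Igtp and Irgm2, which were higher in Fgf21KO muscle, and Gbp7, Isg15 and Oas1a, which hold an ISRE core and had lower levels in the denervated libraries on the TMM scale (for Oas1a without passing the test, and with a change of sign in Fgf21KO on total counts). Each is written 5′ to 3′ on the strand of its gene, with ISRE core and gamma-activated site matches in capitals. No exon of the gene itself in GENCODE M21 overlaps these stretches.
Igtp (chr11:58199436-58199555, plus strand): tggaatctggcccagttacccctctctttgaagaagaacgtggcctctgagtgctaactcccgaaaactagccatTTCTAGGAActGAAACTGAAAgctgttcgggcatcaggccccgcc
Irgm2 (chr11:58214857-58214976, plus strand): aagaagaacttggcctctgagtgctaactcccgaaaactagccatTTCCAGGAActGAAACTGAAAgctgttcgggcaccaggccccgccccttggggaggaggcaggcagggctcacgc
Gbp7 (chr3:142530216-142530335, plus strand): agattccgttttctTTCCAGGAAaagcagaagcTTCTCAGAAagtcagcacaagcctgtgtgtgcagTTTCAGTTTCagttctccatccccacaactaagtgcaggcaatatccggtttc
Isg15 (chr4:156200819-156200938, minus strand): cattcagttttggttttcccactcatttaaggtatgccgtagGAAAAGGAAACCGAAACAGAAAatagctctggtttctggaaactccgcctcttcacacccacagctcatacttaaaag
Oas1a (chr5:120907526-120907645, minus strand): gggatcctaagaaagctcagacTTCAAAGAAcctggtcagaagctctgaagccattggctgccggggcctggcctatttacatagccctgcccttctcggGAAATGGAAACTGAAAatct

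In Igtp the gamma-activated site began 45 bases before the start site and the ISRE core 34 bases before it. Irgm2, its neighbour, held the same arrangement at 75 and 64 bases. Gbp7 held 2 gamma-activated sites, at 106 and 87 bases, and an ISRE core at 53 bases. Isg15 held 3 overlapping ISRE cores, at 78, 72 and 66 bases, and no gamma-activated site. Oas1a held 2 overlapping ISRE cores, at 20 and 14 bases, and a gamma-activated site at 98 bases. A match describes the letters of the window and does not show that a factor was bound.

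The first comparison asked how denervation moved these genes in each genotype. Over all 4 libraries, the effects of denervation and genotype were fitted in 1 additive model with the quasi-likelihood test of edgeR, with adjustment over all 13084 genes tested, and a gene was called at an adjusted p below 0.05 and an absolute log2 fold change of at least 1. The spread in this model is that between 4 pooled libraries and not between mice. Denervation called 5 members as higher, Gbp10, Gbp6, Irgm1, Ifitm3 and Ifitm10, where 6.84% of all genes were called higher. It called 5 as lower, Irf5, Ifngr2, Ifit3b, Oas1b and Ifi203-ps, where 6.24% of all genes were called lower. By adjusted p alone, 16 members were higher and 22 lower, against 26.6% and 27% of all genes. The members therefore moved both ways, at shares close to those of all genes. On total counts alone, 7 members were called higher, with Ifi35 and Irf3 added, and 1 lower, which was Irf5, where 13% of all genes were called higher and 2.48% lower. Of the 38 members past the adjusted p, 25 also passed by DESeq2's Wald test, and Gbp2, Gbp3, Ifnar2, Igtp, Iigp1, Irf1, Irf2bp2, Irf2bpl, Isg15, Isg20l2, Oas1b, Oas2 and Parp12 did not.

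In WD vs. WS, 6 members were at least 2-fold higher (7.18% of all genes) and 6 at least 2-fold lower (7.61%). In KD vs. KS, 4 members were at least 2-fold higher (7.51% of all genes) and 4 at least 2-fold lower (6.1%). The median log2 ratio of the members was -0.12 in WT and -0.19 in Fgf21KO, against 0.01 in each for all genes. On total counts these medians turned positive (0.16 in each genotype) and stayed below those of all genes (0.29 and 0.36), with 37 (WT) and 41 (Fgf21KO) members above 0 in place of 30 and 25. On the TMM scale, both ratios were above 0 for 23 members (34.8%, against 42.1% of all genes) and below 0 for 34 (51.5%, against 40.8%).

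**Figure D1:**
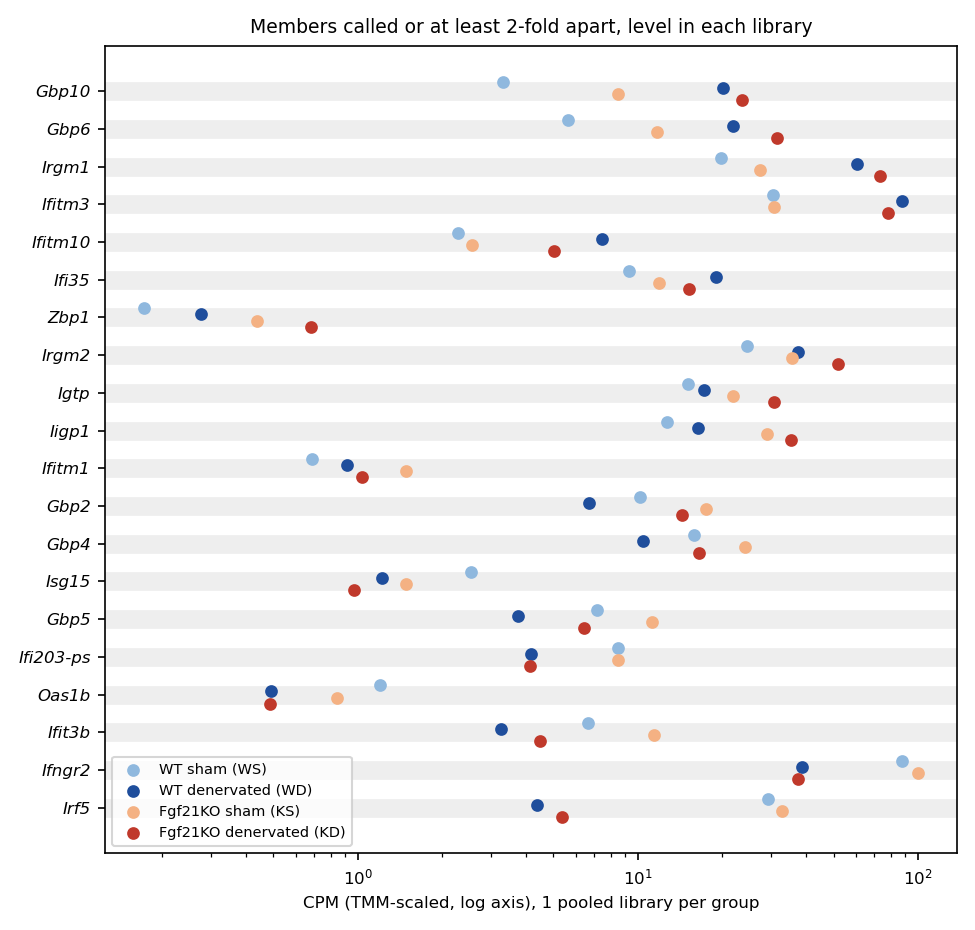
Level of 20 members that were called for denervation, passed the adjusted p for genotype, or were at least 2-fold apart in a pair of libraries. Each point is 1 pooled library on a log axis of CPM, and genes are ordered by the denervation log2 fold change of the additive model, from Gbp10 (1.93) at the top to Irf5 (-2.68) at the bottom. Blue points are WT and orange to red points Fgf21KO, with the darker shade for denervated muscle.

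Among the receptors, both chains of the interferon gamma receptor fell. Ifngr2, the signalling chain of the interferon gamma receptor, had 2033 counts in WT sham and 1264 in WT denervated muscle, and 2983 and 1156 in the same Fgf21KO groups (87.5, 38.7, 100.4 and 37.4 CPM). Both denervated libraries lay below both sham libraries, and the log2 ratio was -1.18 in WT and -1.43 in Fgf21KO (log2 fold change -1.302 ± 0.082 SE, adjusted p = 6.28e-14). Ifngr1, the chain that binds interferon gamma, had 620 and 659 counts in sham and denervated WT muscle (26.7 and 20.2 CPM) and 859 and 558 in Fgf21KO muscle (28.9 and 18.04 CPM). It fell by less than 2-fold in both genotypes (-0.40 in WT and -0.68 in Fgf21KO, log2 fold change -0.54 ± 0.11 SE, adjusted p = 7.41e-05), and passed the adjusted p on the TMM scale but not on total counts (adjusted p = 0.0904).
Ifnar1 had WT counts of 403 (sham, 17.4 CPM) and 524 (denervated, 16.1 CPM) and Fgf21KO counts of 488 (16.4 CPM) and 445 (14.4 CPM), and its log2 ratios were -0.11 in WT and -0.19 in Fgf21KO (log2 fold change -0.15 ± 0.12 SE, adjusted p = 0.283). Ifnar2, the other chain of the type I receptor, had 164 counts in WT sham and 282 in WT denervated muscle, and 184 and 263 in the same Fgf21KO groups (7.06, 8.64, 6.19 and 8.501 CPM). It was slightly higher after denervation in both genotypes (0.29 in WT and 0.45 in Fgf21KO, log2 fold change 0.37 ± 0.16 SE, adjusted p = 0.0493), but the adjusted p was 0.0557 with DESeq2's size factors, 0.0642 without the filter on low counts and 0.303 by DESeq2's Wald test. Per kilobase of annotated exon, Ifngr2 stood highest of the 4 chains in each library, at 23.2 RPKM in WS and 10.3 in WD, while Ifnar2 stood at 2.12 and 2.59.

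Of the STAT genes, which encode the signal carriers, 2 rose, 1 fell, and Stat2 and Stat6 did not pass the adjusted p for denervation. Stat3, which carries signals of interleukin-6 and related cytokines, had 1592 and 3238 counts in sham and denervated WT muscle (68.5 and 99.2 CPM) and 1871 and 2875 in Fgf21KO muscle (62.99 and 92.9 CPM). Stat5a had WT counts of 523 (sham, 22.5 CPM) and 1085 (denervated, 33.2 CPM) and Fgf21KO counts of 726 (24.4 CPM) and 1111 (35.9 CPM). Both were higher in each denervated library than in either sham library, with log2 ratios of 0.53 in WT and 0.56 in Fgf21KO for Stat3 (log2 fold change 0.55 ± 0.075 SE, adjusted p = 3.8e-07) and of 0.56 in WT and 0.55 in Fgf21KO for Stat5a (log2 fold change 0.56 ± 0.095 SE, adjusted p = 1.21e-05).
Stat5b, which carries growth hormone signals in muscle, lies beside Stat5a on chromosome 11 and moved the other way. It had 7532 counts in WT sham and 7062 in WT denervated muscle, and 10389 and 6829 in the same Fgf21KO groups (324, 216, 349.7 and 221 CPM), the highest level per kilobase of any member in the sham libraries (58.5 RPKM in WS), and its log2 ratios were -0.58 in WT and -0.66 in Fgf21KO (log2 fold change -0.62 ± 0.071 SE, adjusted p = 1.34e-08). Reads of the pair could be confused only in part, since 8.21% of the 50-base words of Stat5a transcripts occur in Stat5b.
Stat2, a carrier of type I signals, had 228 and 256 counts in sham and denervated WT muscle (9.81 and 7.84 CPM) and 287 and 264 in Fgf21KO muscle (9.66 and 8.53 CPM), with log2 ratios of -0.32 in WT and -0.18 in Fgf21KO (log2 fold change -0.25 ± 0.15 SE, adjusted p = 0.156). Stat6, which carries interleukin-4 signals, had WT counts of 734 (sham, 31.6 CPM) and 801 (denervated, 24.5 CPM) and Fgf21KO counts of 676 (22.8 CPM) and 759 (24.5 CPM). WS held the highest of its 4 levels, and the log2 ratio was -0.36 in WT and 0.11 in Fgf21KO (log2 fold change -0.13 ± 0.11 SE, adjusted p = 0.325).

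Irf5 showed the largest denervation difference of any member. It encodes a transcription factor of Toll-like receptor signalling that is known from macrophages, dendritic cells and B cells. Its level was 680 counts in WT sham and 142 in WT denervated muscle, and 973 and 166 in the same Fgf21KO groups (29.3, 4.35, 32.8 and 5.37 CPM). The denervated libraries held 0.151 and 0.166 times the sham level in WT and Fgf21KO (-2.73 in WT and -2.595 in Fgf21KO, log2 fold change -2.68 ± 0.13 SE, adjusted p = 6.86e-17). Beside it, the summed macrophage markers were higher in both denervated libraries, while of 3 B and plasma cell markers Ighm went from 1428 to 305 counts in WT and from 2632 to 309 in Fgf21KO. The other 2, Igkc and Jchain, lay between 4 and 22 counts and did not pass, with denervation log2 ratios of -0.95 in WT and -0.55 in Fgf21KO for Igkc and of 0.52 in WT and 0.11 in Fgf21KO for Jchain. Their part in the Irf5 difference was not tested.
Irf3, which drives interferon transcription when nucleic acids are sensed, went up. It had 390 and 829 counts in sham and denervated WT muscle (16.8 and 25.4 CPM) and 470 and 829 in Fgf21KO muscle (15.8 and 26.8 CPM), with log2 ratios of 0.60 in WT and 0.76 in Fgf21KO (log2 fold change 0.68 ± 0.11 SE, adjusted p = 4.03e-06). Irf7, its partner in that step, had WT counts of 90 (sham, 3.87 CPM) and 151 (denervated, 4.63 CPM) and Fgf21KO counts of 136 (4.58 CPM) and 160 (5.17 CPM) (log2 fold change 0.21 ± 0.20 SE, adjusted p = 0.394).
Irf1, an activator of interferon gamma targets, had 286 counts in WT sham and 289 in WT denervated muscle, and 483 and 376 in the same Fgf21KO groups (12.3, 8.85, 16.3 and 12.2 CPM). Irf2, which opposes it, had 470 and 509 counts in sham and denervated WT muscle (20.2 and 15.6 CPM) and 623 and 456 in Fgf21KO muscle (20.97 and 14.7 CPM). Both were lower after denervation on the TMM scale, Irf1 by log2 ratios of -0.47 in WT and -0.42 in Fgf21KO (log2 fold change -0.45 ± 0.13 SE, adjusted p = 0.00435) and Irf2 by -0.37 in WT and -0.51 in Fgf21KO (log2 fold change -0.44 ± 0.11 SE, adjusted p = 0.00153). Neither passed on total counts (adjusted p = 0.429 and 0.365).
Irf8, a factor of the myeloid lineage, had WT counts of 101 (sham, 4.35 CPM) and 138 (denervated, 4.23 CPM) and Fgf21KO counts of 195 (6.57 CPM) and 155 (5.01 CPM) (log2 fold change -0.23 ± 0.20 SE, adjusted p = 0.35), and Irf9, which joins STAT2, had 224 counts in WT sham and 218 in WT denervated muscle, and 244 and 246 in the same Fgf21KO groups (9.64, 6.68, 8.21 and 7.95 CPM) (log2 fold change -0.28 ± 0.16 SE, adjusted p = 0.139). Irf4, a lymphocyte and macrophage factor, was near the lower end of what these libraries measure. It had 16 and 32 counts in sham and denervated WT muscle (0.689 and 0.9801 CPM) and 20 and 18 in Fgf21KO muscle (0.673 and 0.582 CPM), and did not pass the adjusted p for denervation (0.773). Of the IRF2-binding proteins, which are corepressors, Irf2bp2 was higher (log2 fold change 0.32 ± 0.11 SE, adjusted p = 0.0113) and Irf2bpl lower (log2 fold change -0.30 ± 0.098 SE, adjusted p = 0.0112), while Irf2bp1 had an adjusted p of 0.283. On total counts the log2 fold change of Irf2bpl was 0.02.

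**Figure D2:**
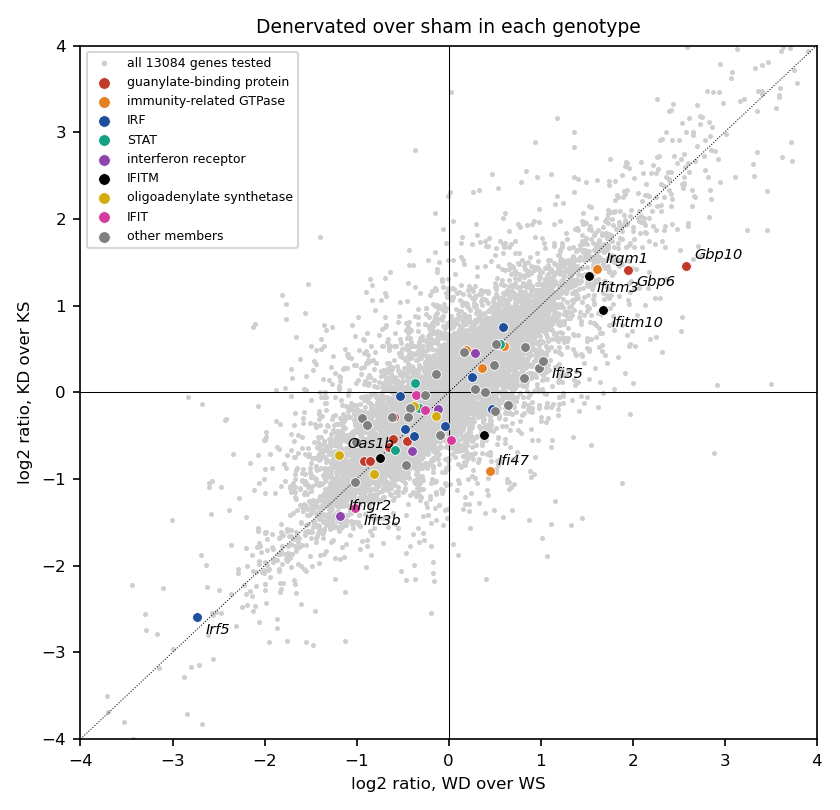
Log2 ratio of WD over WS (x axis) against that of KD over KS (y axis) for all 13084 genes tested (grey) and 64 of the 66 members, coloured by family. The axes span -4 to 4 and leave out 46 genes, none of them a member, and the dotted line marks equal ratios. Irf5 lies at the lower left (-2.73 and -2.60), Gbp10, Gbp6, Irgm1 and Ifitm3 at the upper right, and Ifi47 below the line (0.45 and -0.91).

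The guanylate-binding proteins are large GTPases induced mainly by interferon gamma. They divided after denervation, with 2 of 8 higher and 6 of 8 lower by adjusted p in the additive model. Of all genes, 26.6% were higher and 27% lower by the same cut. Gbp10 had WT counts of 77 (sham, 3.31 CPM) and 660 (denervated, 20.2 CPM) and Fgf21KO counts of 253 (8.52 CPM) and 729 (23.6 CPM). Gbp6 had 131 counts in WT sham and 715 in WT denervated muscle, and 348 and 970 in the same Fgf21KO groups (5.64, 21.9, 11.7 and 31.4 CPM). For both, each denervated library lay above both sham libraries, with log2 ratios of 2.58 in WT and 1.46 in Fgf21KO for Gbp10 (log2 fold change 1.93 ± 0.17 SE, adjusted p = 6.72e-11) and of 1.95 in WT and 1.42 in Fgf21KO for Gbp6 (log2 fold change 1.65 ± 0.13 SE, adjusted p = 7.6e-12). These 2 genes are near copies, with 73.3% of the 50-base words of Gbp10 also in Gbp6, so that reads may be split between them. Together they had 208 and 1375 counts in sham and denervated WT muscle and 601 and 1699 in Fgf21KO muscle. On these sums the log2 ratio was 2.23 (95% counting interval 2.02 to 2.45) in WT and 1.44 (1.31 to 1.58) in Fgf21KO.
The other 6 genes went down in both genotypes. Gbp5 had 166 and 122 counts in sham and denervated WT muscle (7.15 and 3.74 CPM) and 333 and 199 in Fgf21KO muscle (11.2 and 6.43 CPM) (log2 fold change -0.86 ± 0.17 SE, adjusted p = 7.64e-05). Gbp4 had WT counts of 369 (sham, 15.9 CPM) and 341 (denervated, 10.4 CPM) and Fgf21KO counts of 719 (24.2 CPM) and 514 (16.6 CPM) (log2 fold change -0.57 ± 0.12 SE, adjusted p = 0.000126). Gbp2 had 236 counts in WT sham and 219 in WT denervated muscle, and 520 and 445 in the same Fgf21KO groups (10.2, 6.71, 17.5 and 14.4 CPM) (log2 fold change -0.42 ± 0.13 SE, adjusted p = 0.00892). Gbp3, Gbp7 and Gbp9 had denervation log2 fold changes of -0.52, -0.83 and -0.64. On total counts Gbp2, Gbp3 and Gbp4 no longer passed the adjusted p (0.569, 0.278 and 0.0862), and the KD vs. KS ratio of Gbp2 changed sign (0.07).
By position, Gbp2, Gbp3, Gbp5 and Gbp7 lie together on chromosome 3 and all 4 went down. Gbp4, Gbp6, Gbp9 and Gbp10 lie together on chromosome 5, where Gbp6 (chr5:105270702-105293698) and Gbp10 (chr5:105215699-105239533) rose and Gbp4 (chr5:105115767-105139586) and Gbp9 (chr5:105077630-105139539) fell. The annotated ranges of Gbp4 and Gbp9 overlap.

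The immunity-related GTPases are smaller proteins that interferon gamma also induces, and 4 of 5 rose after denervation by adjusted p, where 26.6% of all genes did. By DESeq2's Wald test 2 of the 5 passed, Irgm1 and Irgm2, while Igtp and Iigp1 had adjusted p-values of 0.129 and 0.137. Irgm1, a regulator of the other members of this family, had 461 and 1984 counts in sham and denervated WT muscle (19.8 and 60.8 CPM) and 811 and 2266 in Fgf21KO muscle (27.3 and 73.3 CPM). Denervated muscle held 3.05 times the sham level in WT and 2.68 times in Fgf21KO (log2 fold change 1.51 ± 0.088 SE, adjusted p = 9.42e-15). Irgm2 had WT counts of 571 (sham, 24.6 CPM) and 1215 (denervated, 37.2 CPM) and Fgf21KO counts of 1056 (35.6 CPM) and 1599 (51.7 CPM), with log2 ratios of 0.60 in WT and 0.54 in Fgf21KO (log2 fold change 0.57 ± 0.088 SE, adjusted p = 2.83e-06). Igtp, also known as Irgm3, had 350 counts in WT sham and 561 in WT denervated muscle, and 652 and 952 in the same Fgf21KO groups (15.1, 17.2, 21.95 and 30.8 CPM), with log2 ratios of 0.19 in WT and 0.49 in Fgf21KO (log2 fold change 0.35 ± 0.11 SE, adjusted p = 0.00833). Iigp1 had 296 and 534 counts in sham and denervated WT muscle (12.7 and 16.4 CPM) and 860 and 1089 in Fgf21KO muscle (28.95 and 35.2 CPM), with log2 ratios of 0.36 in WT and 0.28 in Fgf21KO (log2 fold change 0.32 ± 0.10 SE, adjusted p = 0.0115). Irgm1, which rose most of these, and Gbp7, which fell, both hold an ISRE core in the promoter window.
Ifi47, the fifth gene of the family, had ratios of opposite sign in the 2 genotypes. It went from 45 to 87 counts in WT (1.94 and 2.67 CPM) but went from 103 to 56 in Fgf21KO (3.47 and 1.81 CPM). Its log2 ratio was 0.45 in WT (95% counting interval -0.08 to 1.01) and -0.91 in Fgf21KO (-1.43 to -0.46).

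**Figure D3:**
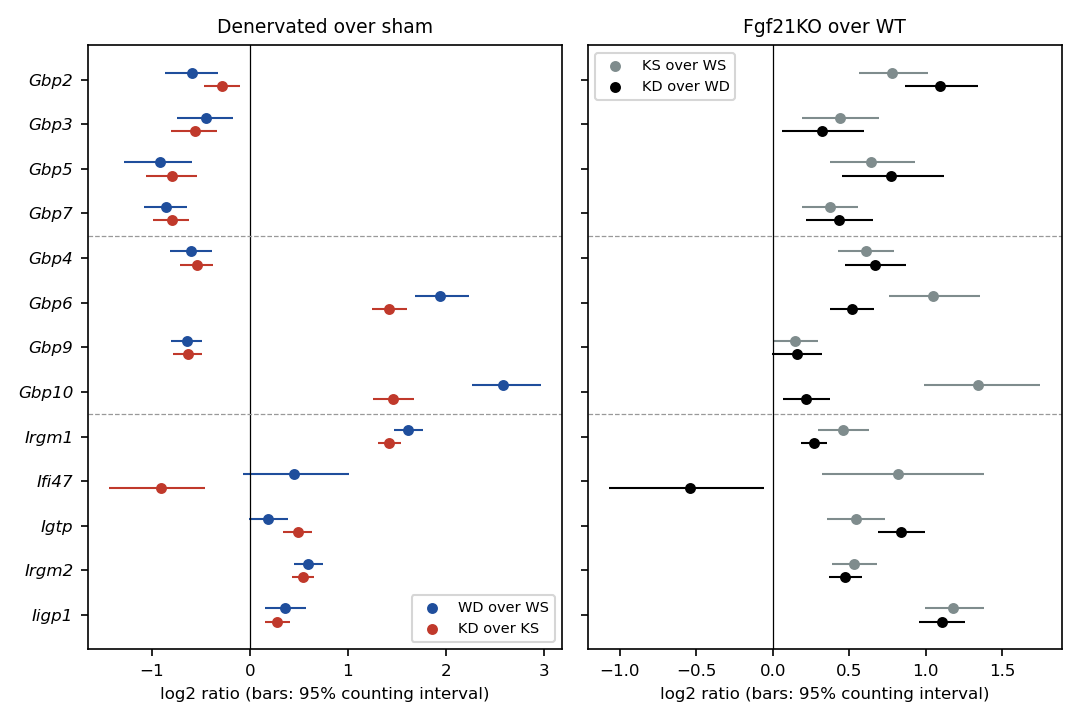
Log2 ratios of the 8 guanylate-binding proteins and 5 immunity-related GTPases for denervated over sham (left) and Fgf21KO over WT (right), with bars for the 95% counting interval of each pair of libraries, which leaves out the spread between mice. Dashed lines part the genes of chromosome 3 (Gbp2 to Gbp7, top), the genes of chromosome 5 (Gbp4 to Gbp10) and the immunity-related GTPases. On the right, 25 of 26 points lie above 0, and the exception is Ifi47 in KD vs. WD.

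The IFITM proteins block entry of viruses at membranes. Ifitm3 had WT counts of 708 (sham, 30.5 CPM) and 2864 (denervated, 87.7 CPM) and Fgf21KO counts of 914 (30.8 CPM) and 2421 (78.3 CPM), with the denervated libraries at 2.87 and 2.54 times the sham level in WT and Fgf21KO (log2 fold change 1.44 ± 0.083 SE, adjusted p = 9.14e-15). Its neighbour Ifitm2 on chromosome 7 went down, from 669 counts (28.8 CPM) to 559 (17.1) in WT and from 752 (25.3) to 464 (15) in Fgf21KO (log2 fold change -0.75 ± 0.11 SE, adjusted p = 6.03e-07). Per kilobase, Ifitm3 and Ifitm2 stood level in WS, at 44.9 and 44.0 RPKM, and apart in WD, at 129.4 and 26.1 RPKM. In annotation, 48.5% of the 50-base words of Ifitm2 recur in other genes, though 3.3% of them in Ifitm3. Ifitm10, a distant relative, had 53 counts in WT sham and 243 in WT denervated muscle, and 76 and 155 in the same Fgf21KO groups (2.28, 7.44, 2.56 and 5.01 CPM) (log2 fold change 1.33 ± 0.23 SE, adjusted p = 1.31e-05). Ifitm1 had 16 and 30 counts in sham and denervated WT muscle (0.689 and 0.919 CPM) and 44 and 32 in Fgf21KO muscle (1.48 and 1.03 CPM) (log2 fold change -0.12 ± 0.39 SE, adjusted p = 0.82).

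The antiviral OAS and IFIT genes, which are classic targets of type I interferon, went down or did not pass. The 4 OAS genes make or relate to the second messenger that activates RNase L. All 4 had lower levels in the denervated than in the sham library of either genotype on the TMM scale, but ratios of Oasl2 in both genotypes and of Oas1a in Fgf21KO changed sign on total counts. Oas1b had WT counts of 28 (sham, 1.21 CPM) and 16 (denervated, 0.4901 CPM) and Fgf21KO counts of 25 (0.842 CPM) and 15 (0.485 CPM) (log2 fold change -1.05 ± 0.43 SE, adjusted p = 0.0409), and DESeq2's Wald test gave it an adjusted p of 0.334. Oas2 fell (log2 fold change -0.90 ± 0.29 SE, adjusted p = 0.0102) but did not pass on total counts (adjusted p = 0.0957) or by DESeq2's Wald test (0.135), while Oas1a and Oasl2 had adjusted p-values of 0.595 and 0.442.
Ifit3b had 154 counts in WT sham and 106 in WT denervated muscle, and 338 and 138 in the same Fgf21KO groups (6.63, 3.25, 11.4 and 4.46 CPM), with log2 ratios of -1.01 in WT and -1.34 in Fgf21KO (log2 fold change -1.203 ± 0.18 SE, adjusted p = 1.97e-06). Its near copy Ifit3 had log2 ratios of 0.03 in WT and -0.55 in Fgf21KO (log2 fold change -0.28 ± 0.18 SE, adjusted p = 0.19). Of the 50-base words of Ifit3, 51.2% occur in Ifit3b, and the pair together had 290 and 301 counts in sham and denervated WT muscle and 615 and 335 in Fgf21KO muscle. On that sum the log2 ratio was -0.44 (95% counting interval -0.68 to -0.20) in WT and -0.94 (-1.13 to -0.74) in Fgf21KO. Ifit1 and Ifit2 had adjusted p-values of 0.563 and 0.369. Isg15, a ubiquitin-like modifier, had 59 and 40 counts in sham and denervated WT muscle (2.54 and 1.23 CPM) and 44 and 30 in Fgf21KO muscle (1.48 and 0.9697 CPM). Both denervated libraries lay below both sham libraries (log2 fold change -0.84 ± 0.33 SE, adjusted p = 0.034), though it did not pass on total counts (adjusted p = 0.185) or by DESeq2's Wald test (0.262).

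The Ifi200 genes, which encode sensors of DNA, fell or did not pass. Ifi203-ps, annotated as a pseudogene by its symbol, had WT counts of 197 (sham, 8.48 CPM) and 136 (denervated, 4.17 CPM) and Fgf21KO counts of 253 (8.52 CPM) and 128 (4.14 CPM) (log2 fold change -1.03 ± 0.18 SE, adjusted p = 1.56e-05). Ifi203 fell on the TMM scale (log2 fold change -0.62 ± 0.15 SE, adjusted p = 0.00103) but did not pass on total counts (adjusted p = 0.163), where its KD vs. KS ratio changed sign (0.06), and its summed count with Ifi203-ps gave log2 ratios of -0.98 in WT and -0.58 in Fgf21KO. Ifi204, Ifi205, Ifi207 and Ifi211 lay between 34 and 97 counts in every library and had adjusted p-values between 0.0611 and 0.721. From 18.6% to 72.8% of the 50-base words of Ifi204, Ifi205 and Ifi211 are shared with other genes.
Among the remaining members, Ifi35 had 216 counts in WT sham and 620 in WT denervated muscle, and 353 and 471 in the same Fgf21KO groups (9.297, 18.99, 11.9 and 15.2 CPM), 2.03 times higher in WD than in WS and 1.28 times higher in KD than in KS (log2 fold change 0.68 ± 0.14 SE, adjusted p = 0.000139). Ifi27, a mitochondrial protein, rose (log2 fold change 0.68 ± 0.11 SE, adjusted p = 3.18e-06), as did Isg20l2 (log2 fold change 0.41 ± 0.14 SE, adjusted p = 0.012). Zbp1, a sensor of Z-form nucleic acids, had 4 and 9 counts in sham and denervated WT muscle (0.172 and 0.276 CPM) and 13 and 21 in Fgf21KO muscle (0.438 and 0.679 CPM), close to the floor in WS. Ifi27l2a, Ifi30, Ifi44 and Isg20 had adjusted p-values between 0.102 and 0.276. Of the 4 Parp genes, which encode ADP-ribosyltransferases, Parp14 (log2 fold change -0.63 ± 0.13 SE, adjusted p = 0.00018) and Parp12 (log2 fold change -0.45 ± 0.15 SE, adjusted p = 0.0145) fell on the TMM scale, while neither passed on total counts, and Parp9 and Parp10 had adjusted p-values of 0.315 and 0.819.

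The second comparison asked how these genes differed between Fgf21KO and WT in sham and in denervated muscle. With 1 pool of mice per genotype, loss of Fgf21 and other differences between the pools cannot be told apart. In this comparison more members lay above 0 than below it, and the members that passed the adjusted p were GTPases. The additive model called 1 member as higher in Fgf21KO, Iigp1, where 8 of 13084 genes (0.0611%) were called higher. It called none as lower, where 0.115% of all genes were called lower. At an unadjusted p below 0.05, 17 members were higher and 2, Stat6 among them, were lower by edgeR, and 12 were higher and 0 lower by DESeq2. The share of all genes past an unadjusted p was not computed, here or for the lists below, so such counts have no background beside them. By adjusted p alone, 7 of 66 members were higher (Iigp1, Gbp2, Igtp, Irgm2, Gbp6, Gbp4 and Gbp5), against 41 of 13084 genes (0.313%), and none was lower, against 0.359%. All 7 are guanylate-binding proteins or immunity-related GTPases.
In KS vs. WS, 5 members were at least 2-fold higher (Gbp10, Iigp1, Zbp1, Gbp6 and Ifitm1; 0.887% of all genes) and none was at least 2-fold lower (1.15% of all genes). In KD vs. WD, 3 members were at least 2-fold higher (Zbp1, Iigp1 and Gbp2; 0.841% of all genes) and 1 was at least 2-fold lower (0.711% of all genes). Their median log2 ratio was 0.16 in sham and 0.08 in denervated muscle, against 0.00 in each for all genes. These 2 ratios come from separate libraries, but the study's methods place sham and denervated muscle in the same mice. Agreement of the 2 ratios is therefore not a second check of genotype in other mice. The SE and p-values for genotype treat the 2 libraries of a genotype as separate, and likewise hold no spread between mice. Both genotype ratios were above 0 for 30 members (45.5%, against 25.8% of all genes) and below 0 for 11 (16.7%, against 27.4%). On total counts 40 members in sham and 38 in denervated muscle lay above 0, in place of 46 and 39.

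**Figure D4:**
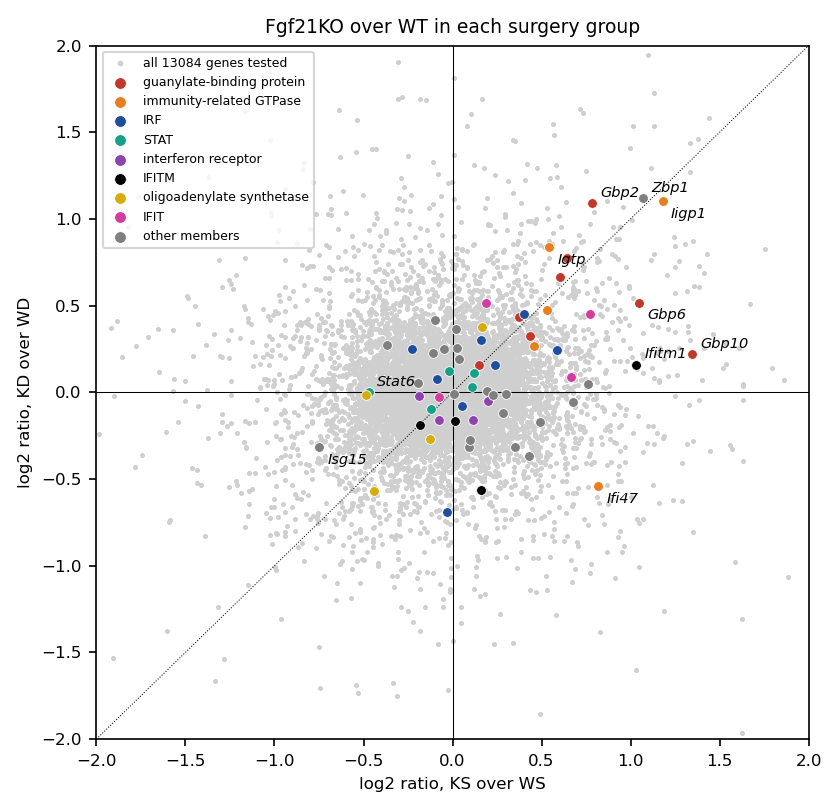
Log2 ratio of KS over WS (x axis) against that of KD over WD (y axis) for all 13084 genes tested (grey) and 64 of the 66 members, coloured by family. The axes span -2 to 2 and leave out 35 genes, none of them a member, and the dotted line marks equal ratios. Iigp1 (1.18 and 1.10) and Gbp2 (0.78 and 1.09) lie at the upper right.

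Iigp1, an effector that disrupts the vacuoles of microbes, was 2.27 times higher in KS than in WS (296 and 860 counts in WS and KS) and 2.15 times higher in KD than in WD (534 and 1089 counts). Both Fgf21KO libraries lay above both WT libraries (log2 fold change 1.14 ± 0.10 SE, adjusted p = 1.96e-08). Over the alternatives with denervation in the model its log2 fold change stayed between 1.10 and 1.15.
Gbp2 was 1.72 times higher in KS than in WS and 2.13 times higher in KD than in WD (log2 fold change 0.94 ± 0.13 SE, adjusted p = 9.07e-05). Igtp was 1.45 and 1.79 times higher (log2 fold change 0.70 ± 0.11 SE, adjusted p = 0.000337), and Irgm2 1.44 and 1.39 times (log2 fold change 0.50 ± 0.088 SE, adjusted p = 0.00145). The annotated ranges of Igtp and Irgm2 overlap, and 11.8% of the 50-base words of Igtp occur in Irgm2. Summed, the pair had a log2 ratio of 0.54 (95% counting interval 0.42 to 0.65) in sham and 0.6 (0.51 to 0.69) in denervated muscle. Gbp4 was 1.52 and 1.59 times higher (log2 fold change 0.64 ± 0.12 SE, adjusted p = 0.00233), and Gbp5 1.56 and 1.71 times (log2 fold change 0.71 ± 0.17 SE, adjusted p = 0.035). Of the 7, Iigp1, Gbp2 and Igtp also passed by DESeq2's Wald test, and Iigp1 and Gbp2 on total counts.
All 8 guanylate-binding proteins had higher levels in Fgf21KO than in WT in both surgery groups, with log2 ratios from 0.15 (Gbp9) to 1.34 (Gbp10) in sham and from 0.16 (Gbp9) to 1.09 (Gbp2) in denervated muscle, and none of these 16 ratios changed sign under another scaling. Gbp6 had the ratios 1.05 (sham) and 0.52 (denervated) (log2 fold change 0.72 ± 0.13 SE, adjusted p = 0.00157), and Gbp10 1.34 (sham) and 0.22 (denervated) (log2 fold change 0.62 ± 0.16 SE, adjusted p = 0.0856). On their summed counts the log2 ratio was 1.18 (95% counting interval 0.95 to 1.41) in sham and 0.38 (0.28 to 0.49) in denervated muscle. Irgm1 was 1.37 and 1.2 times higher in Fgf21KO (log2 fold change 0.35 ± 0.087 SE, adjusted p = 0.0504).

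Among the regulators, Irf1 had higher levels in both Fgf21KO libraries than in the WT library of the same surgery group without passing, with log2 ratios of 0.40 (sham) and 0.45 (denervated) (log2 fold change 0.43 ± 0.13 SE, adjusted p = 0.176). Irf8 had 0.59 (sham) and 0.24 (denervated) (log2 fold change 0.42 ± 0.20 SE, adjusted p = 0.607) and Irf5 0.16 (sham) and 0.30 (denervated) (log2 fold change 0.21 ± 0.12 SE, adjusted p = 0.722). Stat6 had log2 ratios of -0.47 (sham) and 0.00 (denervated) (log2 fold change -0.23 ± 0.11 SE, adjusted p = 0.587). The receptors had ratios between -0.19 and 0.20 in sham and between -0.16 and -0.02 in denervated muscle. Stat2, Stat3, Stat5a, Stat5b, Irf2, Irf3, Irf4, Irf7 and Irf9 had adjusted p-values for genotype of 0.803 and above.
The classic type I targets went both ways between genotypes, and their shift was not tested against that of the GTPases. Of the OAS genes, Oas1b, Oas2 and Oasl2 had negative log2 ratios in both surgery groups (-0.57 to -0.01), and Oas1a had 0.16 and 0.38. Isg15 had -0.75 (sham) and -0.32 (denervated) (log2 fold change -0.58 ± 0.33 SE, adjusted p = 0.727). Ifit1 had 0.19 (sham) and 0.51 (denervated), and Ifit2 -0.08 and -0.03. Ifit3b had 0.77 (sham) and 0.45 (denervated) (log2 fold change 0.64 ± 0.18 SE, adjusted p = 0.131), and on the summed counts of Ifit3 and Ifit3b the log2 ratio was 0.73 (95% counting interval 0.53 to 0.94) in sham and 0.23 (0.00 to 0.46) in denervated muscle. Zbp1 rested on 4 and 9 counts in WT and 13 and 21 in Fgf21KO, with log2 ratios of 1.07 (sham) and 1.12 (denervated) (log2 fold change 1.301 ± 0.55 SE, adjusted p = 0.486). Ifitm1 had 1.03 (sham) and 0.16 (denervated) at 16 to 44 counts (log2 fold change 0.61 ± 0.39 SE, adjusted p = 0.772).

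Members with and without an ISRE core in the promoter window were set side by side, as a description. The 20 members with a core had a median Fgf21KO over WT log2 ratio of 0.40 in sham (16 above 0) and of 0.27 in denervated muscle (14 above 0). The 29 members without a core had medians of 0.10 (17 above 0) and 0.01 (15 above 0). Gbp2, Gbp3, Gbp5, Gbp7, Igtp, Irgm1 and Irgm2 are among the members with a core, so this contrast is not separate from the GTPase differences above. For the gamma-activated site, the 15 members with a match had medians of 0.352 (sham) and 0.242 (denervated), and the 34 without had 0.117 and 0.065. Over all genes tested, the 348 with a core had a median of 0.02 in sham muscle. For denervation, the members with a core had medians of -0.36 in WT and -0.23 in Fgf21KO, and those without had -0.11 and -0.19. Promoter windows were not at hand for Gbp4, Gbp6, Gbp9, Gbp10, Iigp1 and 12 other members.

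The third comparison asked whether denervation moved the members differently in the 2 genotypes. With 1 library per group the interaction has no test, so the differences are given with counting intervals that leave out the spread between mice. No member had a denervation log2 ratio at least 1 higher in Fgf21KO than in WT, and 2 had one at least 1 lower, Gbp10 and Ifi47, where 2.35% and 1.76% of all genes did. For Gbp10 the difference was -1.12 (95% counting interval -1.54 to -0.74), and its sham level was 2.54 times higher in Fgf21KO while the denervated levels were 20.2 CPM in WD and 23.6 in KD. For Gbp6, its near copy, the difference was -0.53 (-0.86 to -0.22). On the summed counts of Gbp6 and Gbp10 the denervation log2 ratios were 2.23 in WT and 1.44 in Fgf21KO, less than 1 apart. Ifi47 rested on 45 to 103 counts per library. For Ifi35 the difference was -0.67 (-0.97 to -0.37). The counting interval left out 0 for 23 members, with 15 lower (22.7%, against 15.9% of all genes) and 8 higher (12.1%, against 14.2%) in Fgf21KO. Among those higher were Ifi203 (0.64), Parp14 (0.51), Irf9 (0.48) and Stat6 (0.47), each of which fell less or not at all in Fgf21KO.

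Other genes of the pathway were taken as lists of known function without the members. Of 34 genes that sense nucleic acids or relay to interferon production, denervation called 2 as higher and 2 as lower. Of all genes, 6.84% were called higher and 6.24% lower. By adjusted p alone, 13 of the 34 were higher and 6 lower, against 26.6% and 27% of all genes. Tlr4, the receptor of bacterial lipopolysaccharide, went from 82 to 1053 counts in WT and from 99 to 1079 in Fgf21KO (log2 fold change 3.29 ± 0.13 SE, adjusted p = 1.99e-18), and Ticam1, its adaptor, rose as well (log2 fold change 1.32 ± 0.20 SE, adjusted p = 1.91e-06). Ifih1, which senses double-stranded RNA, fell (log2 fold change -1.08 ± 0.18 SE, adjusted p = 6.52e-06), as did Tbkbp1 (log2 fold change -1.004 ± 0.16 SE, adjusted p = 4.31e-06). Of 31 Janus kinases, other receptors and negative regulators, none was called as higher and 2 as lower, Lifr (log2 fold change -1.19 ± 0.079 SE, adjusted p = 1.86e-13) and Jak2, a kinase of the interferon gamma receptor (log2 fold change -1.18 ± 0.075 SE, adjusted p = 7.87e-14). DESeq2 called none of the 31 as higher and 2 as lower. At an unadjusted p below 0.05, 4 were higher and 11 lower. By adjusted p alone, 4 were higher and 10 lower, with a median log2 fold change of -0.195. Jak2 had WT counts of 2484 (sham, 107 CPM) and 1528 (denervated, 46.8 CPM) and Fgf21KO counts of 3765 (127 CPM) and 1735 (56.1 CPM), with both denervated libraries below both sham libraries, as for Ifngr2. Jak1, on the same list and named after its values were seen, did not pass for denervation (log2 fold change -0.077 ± 0.07 SE, adjusted p = 0.371).
Of 66 other interferon-induced genes, denervation called 3 as higher and 1 as lower, where 6.84% and 6.24% of all genes were called. By adjusted p alone, more of the 66 were lower than higher, 23 and 6, against 27% and 26.6% of all genes. Trafd1 rose (log2 fold change 1.11) and Rnf114 fell (-1.33) in both genotypes. Ms4a6b (1.85) was called on few counts, 2 and 27 in sham and denervated WT muscle and 8 and 17 in Fgf21KO muscle. Ciita (1.25) had 12, 15, 12 and 59 counts in WS, WD, KS and KD, so that its call rested on KD alone, and its log2 ratio was -0.15 in WT and 2.06 in Fgf21KO. The median log2 fold change of this list was -0.38. Genotype called 1 gene of the list, Tgtp1, a further immunity-related GTPase, which had 142 counts in each WT library and 367 and 270 in sham and denervated Fgf21KO muscle (log2 fold change 1.01 ± 0.16 SE, adjusted p = 0.000337), and DESeq2's Wald test called none. Its near copy Tgtp2 (log2 fold change 0.97 ± 0.15 SE, adjusted p = 0.000244) and Cd274, the ligand of the checkpoint receptor PD-1 (log2 fold change 0.80 ± 0.15 SE, adjusted p = 0.00281), passed the adjusted p alone, and were named after their values were seen.
Of 25 genes of MHC class I presentation, which interferon gamma induces through Nlrc5, denervation called none as higher and 1, H2-M3, as lower (log2 fold change -1.35 ± 0.31 SE, adjusted p = 0.000508). Of all genes, 6.84% were called higher and 6.24% lower. DESeq2 called none of the 25 as higher and 1 as lower. At an unadjusted p below 0.05, 3 were higher and 12 lower. By adjusted p alone, 3 were higher and 11 lower, against 26.6% and 27% of all genes, with a median log2 fold change of -0.27. By genotype 20 of the 25 had a log2 ratio above 0 in sham (49.7% of all genes) and 21 in denervated muscle (48.7% of all genes), with medians of 0.10 and 0.12. These counts were not repeated on total counts, where the median sham ratio of all genes moved from -0.002 to -0.082. Some of the 20 sham ratios were smaller than that shift, as for H2-D1 (0.013) and Psme1 (0.001). Of the 25, 1 passed the adjusted p alone, H2-Q6 (log2 fold change 0.59 ± 0.14 SE, adjusted p = 0.0313), also named after its values were seen. Of 12 genes of MHC class II presentation, denervation called 6 as higher and none as lower, with Ctss (log2 fold change 1.698 ± 0.22 SE, adjusted p = 2.16e-07), H2-Aa (log2 fold change 1.28 ± 0.13 SE, adjusted p = 8.03e-10), H2-Eb1 (log2 fold change 1.27 ± 0.14 SE, adjusted p = 4.91e-09) and Ciita (log2 fold change 1.25 ± 0.49 SE, adjusted p = 0.0335) as the largest. For Ciita, as above, the WT libraries held 12 and 15 counts and did not show a rise. None of the 12 passed for genotype by edgeR or DESeq2, and 1 was higher at an unadjusted p below 0.05.

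The markers of other cells moved with surgery more than with genotype. For denervation, 7 of 14 macrophage markers were called as higher and none as lower (6.84% and 6.24% of all genes). As lower were called 6 of 11 endothelial markers and 6 of 6 pericyte and smooth muscle markers. None of 9 fibroblast markers reached the fold cut with the adjusted p, but by adjusted p alone 6 were lower and none higher. The fibroblast markers summed to 1027 and 1030 CPM in the sham libraries of WT and Fgf21KO and to 653 and 680 in the denervated ones. The pericyte and smooth muscle markers summed to 730.6 and 678 CPM in the sham libraries of WT and Fgf21KO and to 304 and 301 in the denervated ones. Of the 40 markers of these 4 lists, none was called for genotype by edgeR or DESeq2, and at an unadjusted p below 0.05 1 was higher and 3 were lower by edgeR. DESeq2's Wald test called 3 macrophage markers as higher after denervation. Of 16 T and NK cell markers 1 was in the table, Cd247, and the others were not analysed here. Of the B cell and plasma cell markers 3 were tested, and all 3 were higher in Fgf21KO at an unadjusted p below 0.05 while none passed the adjusted p. Ighm, the most abundant of them, had 1428 counts in WT sham and 305 in WT denervated muscle, and 2632 and 309 in the same Fgf21KO groups (61.5, 9.34, 88.6 and 9.99 CPM) (log2 fold change 0.37 ± 0.099 SE, adjusted p = 0.0953 for genotype). The part of these cells in the members' differences was not tested.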

How the data were processed

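TA muscle RNA was sequenced as 1 library per group, with 4 muscles pooled in each, and samples were grouped by their labels. The authors deposited unnormalized read counts for each gene. In a further deposited table each log2 value equals log2 of 1 plus the count scaled by a constant of its library. Per the labels the libraries were TruSeq Stranded mRNA libraries, and the submitters' processing notes name FastQC and GRCm39. The aligner and counter are not given in the sources used here. The table lists 13825 genes, none with a 0 in any library, and the totals above cover these genes alone. Genes with 0 reads in a library are thus outside it, and reads of near-identical copies may have been split or dropped in counting.

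Counts were analysed with edgeR 4.0.16 and DESeq2 1.42.0 in R 4.3.3, with Python 3.11.15 for sequences and matplotlib 3.10.9 for plots. The 13084 genes averaging 10 counts or more were scaled by TMM. Denervation and genotype were tested in 1 additive model with the quasi-likelihood test of edgeR and Benjamini-Hochberg adjustment, and the 1 residual degree of freedom is the interaction. The common biological coefficient of variation was 0.0681. Ratios of 2 libraries are differences of log2 CPM at a prior count of 2, and their 95% exact binomial intervals and floors of 3 counts cover counting error only. RPKM was computed from these CPM and the exon length in GENCODE M21 (GRCm38), and words of 50 bases were compared between its transcripts. Scripts were tested on simulated data.

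Of the 66 members 64 were named, and the others enter the counts but are not reported here. Receptors, STAT and IRF genes, and members called or at least 2-fold apart in a pair, were given in full. From each pathway list up to 4 genes with the largest denervation change among those called, and those called for genotype, were named. The members and lists were chosen with earlier results of these data known. Alternatives were size factors of DESeq2 or total counts as scaling, a minimum mean count of 0 or 50, DESeq2's Wald test, the tested factor alone in the model, no fold threshold, prior counts of 0.5 or 5, differences of the deposited log2 values, a fold of 1.5, and edgeR's exact test with the variation set to 0.1 or 0.4. Sums of near-identical copies were added after seeing the data.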

Additional observations from a re-analysis of the deposited data

Results flagged for a closer look

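For 6 members the denervation log2 ratio had opposite directions in WT and Fgf21KO, and the 95% counting interval of the difference (KD vs. KS minus WD vs. WS) left out 0. With 1 library per group the difference itself was not tested. For each of the 6, the counting interval of at least 1 of its 2 ratios spans 0, so the opposite directions are not resolved by these intervals. On total counts 3 of the 6, Ifi204, Ifi211 and Parp10, had ratios above 0 in both genotypes, while Ifi47, Ifit3 and Stat6 kept opposite directions. Ifi47 differed by -1.36 (-2.10 to -0.70), from 0.45 in WT to -0.91 in Fgf21KO. Ifi211 differed by -0.79 (-1.56 to -0.08) and Ifi204 by -0.73 (-1.42 to -0.08), both at under 100 counts per library. Ifit3 differed by -0.57 (-0.99 to -0.17), and summed with its near copy Ifit3b it was below 0 in both genotypes. Parp10 differed by 0.34 (0.01 to 0.68) and Stat6 by 0.47 (0.27 to 0.68). By sign alone, without the interval rule, 17.2% of all genes tested had opposite directions in the 2 genotypes, and 13.6% of the members.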

How the results depend on the processing

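No paired analysis was possible because at most 1 replicate number is shared, every group being 1 pool. The study's methods place sham and denervated muscle in the same mice, and the genotype term of the additive model holds the pools of a genotype together. No library could be left out since no residual degree of freedom would remain. Of 61 recomputed counts of members, 40 stayed within 1.5 times the reported count and 21 did not. The 10 members called for denervation became 38 with no fold threshold, and the 1 called for genotype became 7 with no fold threshold and 0 with genotype alone in the model, where denervation adds to the spread. For denervation, the 12 (WT) and 8 (Fgf21KO) members at least 2-fold apart became 28 and 21 at a fold of 1.5, and 0 in both by the exact test with a variation of 0.4. For Fgf21KO over WT, the 5 (sham) and 4 (denervated) members became 16 and 8 at a fold of 1.5, and 0 in both with a variation of 0.4. On the deposited log2 values, whose added 1 shrinks low genes, the count was 7 for denervation in WT, 2 for genotype in sham and 1 in denervated muscle, and the 2 members with a denervation ratio at least 1 apart between genotypes became 0. For genotype in sham muscle the count was 2 on total counts, and 3 with a minimum mean of 50, a prior count of 5 or a variation of 0.1. For genotype in denervated muscle it was 2 with a minimum mean of 50 or a variation of 0.1. Of 268 refits of single members that passed the adjusted p, 216 still passed, 51 kept their direction without passing, and 1 reversed, Irf2bpl on total counts (log2 fold change 0.021). All 7 members that passed for genotype were lost with genotype alone in the model. Counts under about 100, as for Oas1b, Isg15, Zbp1 and Irf4, leave wide counting intervals.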
